A study of Homo sapiens with 9 samples.

Results

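Complex I of the respiratory chain was examined through 33 nuclear genes that encode its subunits, out of 19775 genes represented on the arrays. A gene was included where a probe set (a group of array probes read as 1 value) had a single gene symbol of the NDUFA, NDUFB, NDUFC, NDUFS or NDUFV families or NDUFAB1. Assembly factors (NDUFAF genes) were left out, and the probe set with the highest mean over the arrays stood for each gene. All 33 lay above the filter on dim genes, so none was lost among the 13842 genes tested. NDUFS5, NDUFS8 and NDUFC2 occur only in probe sets with several symbols, and they, NDUFA4, NDUFA4L2 and the subunits encoded in the mitochondrial genome were not analysed here.

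Complex I (NADH:ubiquinone oxidoreductase) takes electrons from NADH, passes them through a flavin and a chain of iron-sulfur clusters to ubiquinone, and pumps protons across the inner mitochondrial membrane. Core subunits carry this chemistry: those of the arm that reaches into the matrix are encoded in the nucleus, and those of the membrane arm in the mitochondrial genome. Accessory subunits surround both arms and are needed for assembly and stability, and in fat cells the respiratory chain serves the oxidation of fuels that compete with storage as lipid.

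The cells were LiSa-2, an established human liposarcoma (fat tumour) line, kept in DMEM/F12 medium with bovine serum and antibiotics. Each of 9 Affymetrix U133 Plus 2.0 arrays held the total RNA of 1 sample, in 3 groups of 3: PBS buffer, taken at 24 h; bovine testicular hyaluronidase (HAase, which cleaves the matrix sugar hyaluronan) at 400 µg/mL for 6 h; and the same enzyme at 400 µg/mL for 24 h. The series title concerns matrix remodeling, glucose metabolism and the protein TXNIP. All groups share the line and medium, no group received inactivated enzyme, and since PBS was taken at 24 h, neither the comparison of 6 h with PBS nor that of 24 h with 6 h can separate treatment from harvest time. Nothing in the labels ties the 3 samples of a group to separate cultures, and p-values therefore speak only of how far these samples spread, which can be a technical matter. In such bulk RNA, fewer cells of a kind and less RNA per cell cannot be told apart.

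All 10 adipocyte markers checked (among them PPARG, FABP4 and ADIPOQ) lay above the array's background in PBS. Background here is the brightest of 27 control probe sets for bacterial transcripts, which reached 34.2 to 65.0 on the arrays. Their summed signal was 82600 to 87230 in PBS, 71160 to 74280 at 6 h and 44810 to 50440 at 24 h. By limma, a linear model fitted gene by gene over all arrays, 9 of the 10 fell at 24 h (Benjamini-Hochberg adjusted p under 0.05, here called passing the test). Over all genes tested 22.8% fell and 17.5% rose. These markers moved with the complex I genes described next, and their part in those changes was not tested. Of the markers of other lineages, EPCAM and CDH1 (epithelium), PTPRC (leukocytes), and CDH5 and TEK (endothelium) were at or below background on every array, whereas KRT8 (epithelium), CSF1R and LCP1 (leukocytes) and PECAM1 (endothelium) lay above it on all 9. By limma CSF1R (log2 fold change 1.04), LCP1 (0.88) and PECAM1 (0.53) were higher at 24 h than in PBS, and KRT14 (epithelium) fell from a mean of 310.5 to a level at or below background on all 3 arrays. The part of these markers in the results was not tested. Summed signals of those lists were 453.9 to 715.7 in PBS and 228.2 to 338.7 at 24 h for 7 epithelial markers, 193.1 to 210.3 and 400.8 to 438.3 for 5 leukocyte markers, and 276.7 to 341.9 and 420.3 to 442.4 for 5 endothelial markers. The log2 ratio of the 3′ to the 5′ control probe sets of ACTB, a sign of RNA quality, was 1.56 to 1.70 in PBS, 1.14 to 1.50 at 6 h and 1.38 to 1.62 at 24 h. That of GAPDH was -0.017 to 0.041, -0.056 to 0.038 and -0.21 to -0.023 in the same order, so that its 24 h arrays all lay below the PBS arrays. The part of RNA quality in the results was not tested.

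After 24 h of hyaluronidase, mRNAs of complex I subunits were lower nearly throughout, each by a modest amount. Of the 33 genes 30 fell and none rose; no gene was higher at an unadjusted p under 0.05 either, and all 33 were lower at that level. Over all genes tested, 22.8% fell and 17.5% rose in this comparison. The median log2 fold change of the complex I genes was -0.42, with a range from -0.94 (NDUFA3) to -0.12 (NDUFB9), against -0.026 over all genes tested. On the scale of the fit, log2(signal + 16), and with 1 probe set per gene, none reached a 2-fold fall, and the largest was 1.91-fold. Another, dimmer probe set of NDUFS1 read -1.11 (limma adjusted p = 0.000327 in a fit on all probe sets). On every one of the 33 genes the 3 arrays at 24 h lay below the 3 PBS arrays, a separation seen in this direction for 28.9% of all genes tested. Since complex I probe sets were bright, the same shares were also taken, as a comparison chosen after the values were seen, over the 4440 genes whose mean signal was at least that of the dimmest complex I gene (1332). There 27.1% fell and 26.8% rose, with a median of 0.005. With only probe sets whose name carries no suffix for possible shared matches, 26 of the genes could be tested and 17 were lower.

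**Figure D1:**
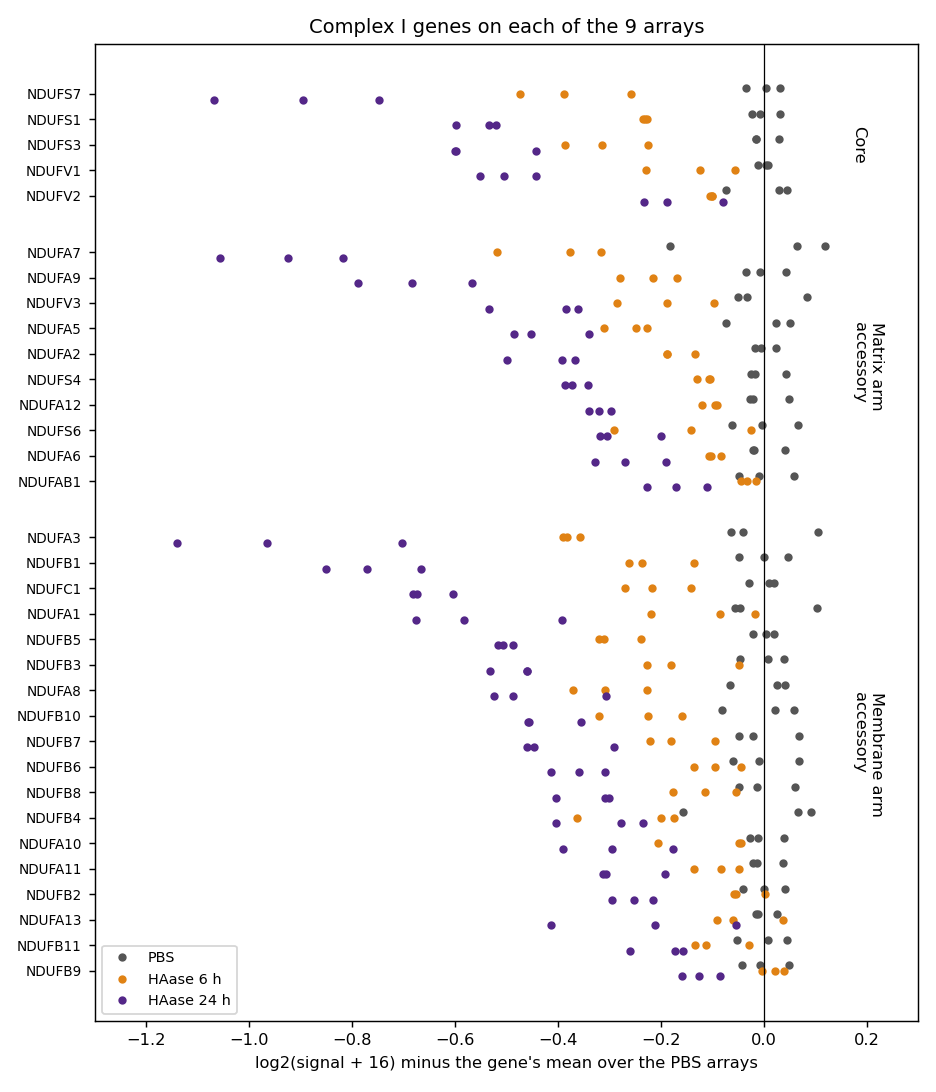
Each row is 1 complex I gene and each point 1 array, plotted as log2(signal + 16) minus the gene's mean over the 3 PBS arrays. Grey is PBS, orange 6 h and purple 24 h of hyaluronidase (HAase), with genes ordered by their change at 24 h within core, matrix arm and membrane arm subunits. Purple points lie left of the grey points in all 33 rows, while orange points overlap the grey ones in some rows.

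**Figure D2:**
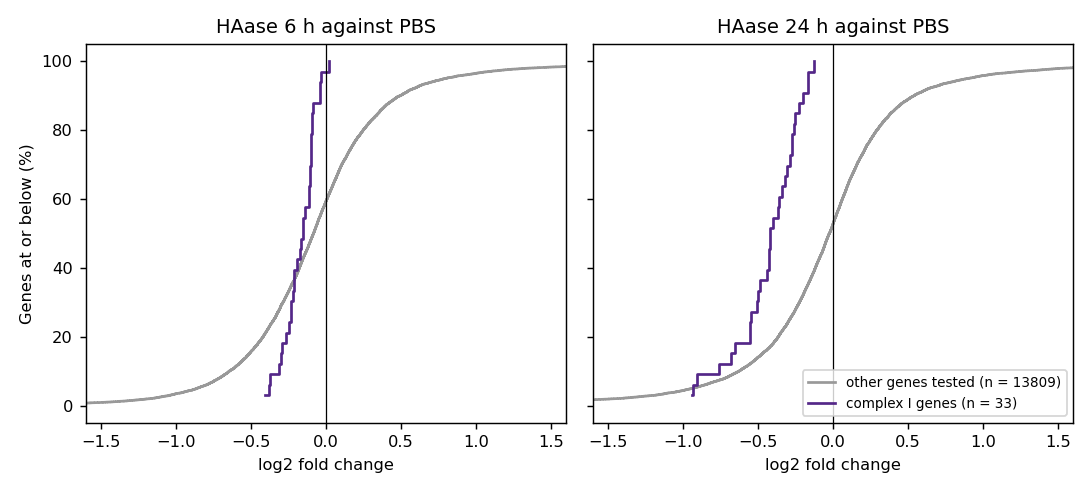
Cumulative share of genes (vertical axis, percent) at or below each log2 fold change (horizontal axis) for the 33 complex I genes (purple) and the other genes tested (grey), at 6 h (left) and 24 h (right) against PBS. At 24 h the purple line ends below zero, at -0.12, and its median is -0.42, whereas the grey line runs to both sides of zero.

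The core subunits sit where electrons travel. NDUFS7 carries the last iron-sulfur cluster before ubiquinone. Its signal was 1953, 2005 and 2044 on the PBS arrays, 1668, 1523 and 1435 at 6 h, and 945.7, 1185 and 1068 at 24 h. The 3 groups did not overlap, and 24 h was the lowest. The log2 fold change at 24 h was -0.90 ± 0.09 (SE; limma adjusted p = 0.000124).

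NDUFS1, the largest core subunit of the matrix arm, holds several of the iron-sulfur clusters. It read 4441, 4393 and 4562 in PBS, 3812, 3795 and 3802 at 6 h, and 3106, 2942 and 3080 at 24 h. Its groups stood in the same order without overlap, and the change at 24 h was -0.55 ± 0.046 (SE; limma adjusted p = 4.09e-05). NDUFS3, a scaffold of the part of the arm that binds ubiquinone, went from 6797, 7012 and 6795 in PBS to 5869, 5247 and 5517 at 6 h and 4526, 5046 and 4532 at 24 h. The change was -0.55 ± 0.07 (SE; limma adjusted p = 0.000328), again with no overlap between groups.

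The pair of core subunits at the tip, where NADH is oxidised, differed in the size of their change, a difference between genes that was not tested. NDUFV1, which binds the flavin and NADH, averaged 4761 ± 34.1 in PBS and 3363 ± 129 at 24 h (SD, n = 3 each), and its log2 fold change was -0.50. Its neighbour NDUFV2, which holds another iron-sulfur cluster, did not pass the test. NDUFV2 read 10200, 9485 and 10300 in PBS, 9310, 9315 and 9290 at 6 h, and 8762, 8497 and 9450 at 24 h, so the 24 h arrays lay below the PBS arrays only by a small gap. Its log2 fold change was -0.17 ± 0.06 (SE; limma adjusted p = 0.0543), and it passed as lower without PBS replicate 2 (adjusted p = 0.0447) or without 24 h replicate 3 (0.0275).

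All 10 genes grouped here as accessory subunits of the matrix arm, NDUFAB1 among them, fell at 24 h. Their median log2 fold change was -0.39. NDUFA7 showed the largest change among them. It read 2092, 1694 and 2016 in PBS, 1543, 1339 and 1480 at 6 h, and 917.9, 1008 and 1086 at 24 h, with no overlap although the PBS arrays were spread. The change was -0.93 ± 0.10 (SE; limma adjusted p = 0.000197). NDUFA9, a nucleotide-binding protein near the joint of the arms, read 6142, 6256 and 6484 in PBS, 5599, 5420 and 5181 at 6 h, and 3635, 3911 and 4243 at 24 h. The groups were again apart, and NDUFA9 fell by 0.68 on the log2 scale (SE 0.07; limma adjusted p = 0.000116).

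NDUFV3, a small subunit at the NADH-oxidising tip, read 3917, 3611 and 3570 in PBS, 3455, 3241 and 3031 at 6 h, and 2547, 2826 and 2874 at 24 h. It fell by 0.43 on the log2 scale (SE 0.08; limma adjusted p = 0.00254). A second, dimmer NDUFV3 probe set (mean signal 296.4 in PBS) read -0.018 at 24 h with no call, so the fall of this gene rests on 1 probe set. NDUFAB1 had the smallest change of the group. It encodes the mitochondrial acyl carrier protein, which also serves fatty acid synthesis and iron-sulfur cluster formation outside complex I. Its signal was 23140, 23800 and 24940 in PBS, 23430, 23700 and 23220 at 6 h, and 21290, 22170 and 20460 at 24 h. PBS and 6 h overlapped and 24 h lay below both. The change of -0.17 ± 0.05 (SE; limma adjusted p = 0.0347) missed the test when PBS replicate 2, PBS replicate 3, 24 h replicate 1 or 24 h replicate 3 was left out (adjusted p up to 0.107).

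Of the other matrix arm genes, the assembly-linked NDUFS4 fell by 0.37 and NDUFA12, which sits beside it, fell by 0.32 on the log2 scale. NDUFA5 fell by 0.43, the thioredoxin-fold protein NDUFA2 by 0.42, the zinc-binding subunit NDUFS6 by 0.28 and NDUFA6, a partner of the acyl carrier protein, by 0.26. NDUFS6 missed the test on leaving out any one of the same 4 arrays (limma adjusted p up to 0.0786).

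In the membrane arm, 16 of 18 accessory genes fell at 24 h, with a median of -0.38. NDUFA3, a small subunit of the part near the matrix arm, had the largest fall of all 33 by the probe sets that stood for the genes. It read 3913, 4401 and 3977 in PBS, 3134, 3117 and 3191 at 6 h, and 1848, 2087 and 2507 at 24 h. The groups stood apart, and the fitted change was -0.94 ± 0.11 (SE; limma adjusted p = 0.000255). On the unlogged scale it fell by 47.7%.

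NDUFB1, of the far end of the membrane arm, read 8804, 9406 and 9111 in PBS, 8281, 7725 and 7591 at 6 h, and 5040, 5733 and 5333 at 24 h. It fell by 0.76 on the log2 scale (SE 0.07; limma adjusted p = 4.98e-05), and a second, dim probe set (67.26 in PBS) read -1.05 without passing. NDUFC1, which spans the membrane once, read 8651, 8947 and 8889 in PBS, 8004, 7318 and 7588 at 6 h, and 5498, 5804 and 5532 at 24 h. It fell by 0.65 (SE 0.05; limma adjusted p = 3.58e-05). For both genes the 3 groups were separate and in the order PBS, 6 h, 24 h.

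At the other end of the range, NDUFB9, a small protein of the LYR family at the far end of the arm, hardly moved. Its signal was 20500, 20000 and 21320 in PBS, 20560, 21170 and 20910 at 6 h, and 18870, 19410 and 18450 at 24 h. PBS and 6 h overlapped, and 24 h was lower on all arrays by a margin that did not pass the test (-0.12 ± 0.048, SE; limma adjusted p = 0.0774). NDUFA13, also known as GRIM-19, was the other membrane arm gene that did not pass: it averaged 16530 ± 262 in PBS and 14200 ± 1750 at 24 h (SD, n = 3 each; adjusted p = 0.0804). Its 24 h arrays were the widest apart in relative terms after those of NDUFA3, at 12410, 14270 and 15910, and without replicate 3 it passed as lower (adjusted p = 0.0188).

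Among the other membrane arm genes that fell, NDUFA1 (-0.55), NDUFB5 (-0.50), NDUFB3 (-0.48) and NDUFA8 (-0.44) had the larger log2 fold changes. NDUFA8 and NDUFB10 (-0.42) face the intermembrane space and are held by disulfide bonds. NDUFB7 (-0.40), NDUFB6 (-0.36), NDUFB8 (-0.34), NDUFB4 (-0.31), NDUFA10 (-0.29), NDUFA11 (-0.27), NDUFB2 (-0.26) and NDUFB11 (-0.20) made up the rest. The calls of NDUFB4 and NDUFB11 did not hold without PBS replicate 2 or 3, nor without 24 h replicate 1, and that of NDUFB4 also not without 24 h replicate 3 (limma adjusted p up to 0.088). NDUFA10 missed the test without PBS replicate 1 (0.0506). In all, 25 of the 30 calls at 24 h held when each of the 6 arrays compared was left out in turn, and NDUFA10, NDUFAB1, NDUFB4, NDUFB11 and NDUFS6 were the ones that did not.

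At 6 h the falls were smaller and fewer. Of the 33 genes 13 were lower and none higher by limma, and 18 were lower and none higher at an unadjusted p under 0.05. Over all genes 27.4% were lower and 15.0% higher, so a share of 13 in 33 lay not far above the background; among genes at least as bright as the dimmest complex I gene the shares were 27.8% and 23.6%. The median log2 fold change was -0.15, against -0.083 over all genes tested and -0.030 over the bright ones. The 3 arrays lay below the PBS arrays for 25 genes, a separation seen for 34.5% of all genes. The comparison uses the same PBS arrays as that at 24 h, so the 2 are not independent of each other. The count at 6 h depended on the processing. It was 26 under quantile normalization and 20 with a trended and robust variance, but 9 with equal array medians and 9 with a replicate block.

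The genes lower at 6 h were 3 core subunits (NDUFS1, NDUFS3 and NDUFS7), 4 of the matrix arm (NDUFA2, NDUFA5, NDUFA7 and NDUFA9) and 6 of the membrane arm (NDUFA3, NDUFA8, NDUFB1, NDUFB5, NDUFB10 and NDUFC1). All 13 were also lower at 24 h; 17 genes passed at 24 h alone, and 3 at neither time. NDUFA7 had the largest fitted change at 6 h (-0.40 ± 0.10, SE; limma adjusted p = 0.0143), a call lost without PBS replicate 1 (0.0504). NDUFA3 was at -0.38 and NDUFS7 at -0.37, while NDUFB5 changed by -0.29 ± 0.046 (SE) with the lowest adjusted p, 0.00159. When each array was left out in turn, the calls of NDUFA5, NDUFA8, NDUFB5, NDUFS1, NDUFS3 and NDUFS7 held. The other 7 were lost without at least 1 array, and the count dropped to 8 without 6 h replicate 2 or without 6 h replicate 3. NDUFB9 was the single gene with a fitted change above zero at 6 h (0.019, adjusted p = 0.781), and it read -0.002 without PBS replicate 2.

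Set directly against 6 h, the 24 h arrays were lower for 22 of the 33 genes and higher for none (27 and 0 at an unadjusted p under 0.05), with a median log2 fold change of -0.22. This went against the direction of the array as a whole, where 13.3% of genes were lower and 19.7% higher and the median was 0.053; among the bright genes the shares were 19.5% and 23.3%. Of the 22 genes, 12 had not passed at 6 h against PBS and 10 were lower in all 3 comparisons. NDUFA3 (-0.56 ± 0.11, SE; limma adjusted p = 0.00541), NDUFB1 (-0.55 ± 0.07; 0.000525), NDUFS7 (-0.53 ± 0.09; 0.00326) and NDUFA7 (-0.53 ± 0.10; 0.00567) differed most between the times. NDUFB4, NDUFV2 and NDUFB11 lay closest to their 6 h level (-0.059, -0.065 and -0.11, none past the test). In this comparison 16 of the 22 calls held without each of the 6 arrays in turn, and 10 genes were lower with the mean of each gene's probe sets and 12 of 26 with probe sets without a suffix.

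The median over the 33 genes, taken on each array relative to the PBS mean of each gene, ran from -0.026 to 0.026 in PBS. It was -0.12, -0.19 and -0.22 on the 6 h arrays and -0.45, -0.37 and -0.37 on the 24 h arrays, so the groups did not overlap in this summary. On each 24 h array all 33 genes lay below their PBS mean. On the 6 h arrays 31, 32 and 32 did, and on the PBS arrays themselves 26, 16 and 11. Such counts over all genes are not given here.

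The size of the change differed with the brightness of the probe set, in a description made after the values were seen. Signals of different probe sets do not measure abundance on one scale, so brightness here is a property of the measurement. The 11 dimmest genes (PBS means 1452 to 6868) had a median log2 fold change of -0.55 at 24 h, the middle 11 (7813 to 11340) of -0.37, and the brightest 11 (14400 to 23960) of -0.28. Spearman's rho between PBS signal and change was 0.60 over 33 genes, which share the same arrays. The genes that did not pass the test at 24 h had PBS means of 9993 for NDUFV2, 16530 for NDUFA13 and 20610 for NDUFB9. The part of probe brightness in these differences was not tested.

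**Figure D3:**
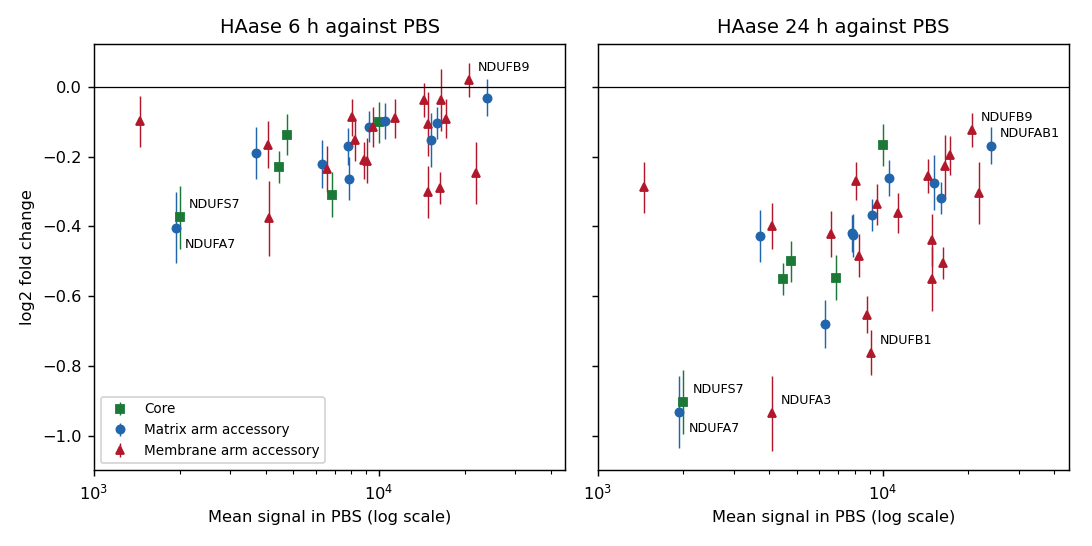
Log2 fold change against PBS (vertical axis, with SE from the limma fit as bars) and mean PBS signal (horizontal axis, log scale) for each of the 33 complex I genes, at 6 h (left) and 24 h (right) of hyaluronidase. Squares are core, circles matrix arm and triangles membrane arm subunits. At 24 h NDUFA3, NDUFA7 and NDUFS7, near -0.9, lie on the dim side, and NDUFB9 and NDUFAB1, at -0.12 and -0.17, on the bright side.

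Other probe sets of the same genes gave a check that the main values did not use. Of 29 such probe sets 23, from 15 genes, lay above the filter, and in a fit on all probe sets, added after the data were seen, 20 changed in the direction of the gene's main probe set at 24 h. By limma 9 fell and none rose. NDUFS1 had the most: beside its main probe set, others with PBS means of 1862, 854.9 and 137.2 read -0.90, -1.11 and -0.93 (adjusted p up to 0.0186), larger falls than the main one at -0.55, and 1 more near background (38.02) read 0.49 with no call. For NDUFB8 a second bright probe set (7650 in PBS) read -0.45 against -0.34 for the main one, and for NDUFA6 a second at 2755 read -0.36 against -0.26. Several of the rest were close to background, among them those of NDUFA10, at 32.5 to 54.46 in PBS. At 6 h only 15 of the 23 changed in the direction of the gene's main probe set, with 4 lower and none higher by limma. These probe sets read the same genes on the same arrays, and shares over all probe sets of that fit are not given here.

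Promoters were read from RefSeq windows of assembly GRCh38.p14, from 250 bases before to 50 bases after the annotated start, because the genes moved together. Windows were found for 31 of the 33 genes, and the motif letters were searched on both strands. NDUFS7 and NDUFS1 are shown, chosen after values and matches were seen, as the core genes with the largest falls; capitals mark matches to motifs bound by regulators of mitochondrial genes or by E-box factors. The window of NDUFS7 is chr19:1383657-1383906 on the plus strand and that of NDUFS1 is chr2:206159445-206159694 on the minus strand, each being the 250 bases that end at the start, 5′ to 3′ along the gene.
NDUFS7: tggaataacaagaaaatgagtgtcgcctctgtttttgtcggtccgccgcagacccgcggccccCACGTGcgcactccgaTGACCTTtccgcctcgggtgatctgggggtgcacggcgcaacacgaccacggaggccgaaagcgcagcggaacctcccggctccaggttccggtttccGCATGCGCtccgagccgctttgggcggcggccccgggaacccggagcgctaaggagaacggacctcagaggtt
NDUFS1: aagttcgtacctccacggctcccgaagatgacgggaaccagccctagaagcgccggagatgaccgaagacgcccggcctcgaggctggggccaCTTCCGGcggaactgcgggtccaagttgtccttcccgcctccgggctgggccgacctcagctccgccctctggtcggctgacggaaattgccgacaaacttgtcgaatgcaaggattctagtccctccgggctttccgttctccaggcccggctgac
In NDUFS7 the capitals mark, from left to right, the E-box CACGTG at -187 (positions give the first base of the match relative to the start), AAGGTCA (a site of estrogen-related receptors such as ESRRA) on the opposite strand at -171, and GCGCATGC (nuclear respiratory factor NRF1) on the opposite strand at -73. In NDUFS1 they mark CCGGAAG, a site of ETS factors such as GABP, on the opposite strand at -157.

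Over all the complex I genes with a window, each share was read against that of the 11167 tested genes with a window and, as a second figure, that of all 35116 RefSeq windows. The NRF1 letters were found in 6 genes (19.4%, against 5.91% of tested genes and 3.05% of windows) and the ESRRA letters in 4 (12.9%, against 3.87% and 3.92%). For other motifs the share of complex I genes lay below that of tested genes: the ETS letters were found in 5 (16.1%, against 20.8% and 10.3%) and the E-box in 3 (9.7%, against 12.3% and 7.26%). ACGTG, the core of hypoxia-inducible factor sites, which is also contained in the E-box, was found in 9 (29.0%, against 31.3% and 21.4%). The letters AAGATGGC, bound by YY1, occurred in 7 genes (22.6%, against 6.06% of tested genes and 2.89% of windows), always on the gene's own strand and from 11 to 26 bases after the start. These letters include ATG, the usual start codon, and whether the match lies in the coding sequence was not tested. The 7 matches are shown with their neighbours because NDUFA3, NDUFA7 and NDUFS7, with the largest falls, all hold them, a choice made after values and matches were seen; capitals mark the 8 matching bases, and windows are 30 bases of GRCh38.p14.
NDUFA3, chr19:54102865-54102894, plus strand: ccgcggagacaAAGATGGCtgcgagtaagt
NDUFA7, chr19:8321343-8321372, minus strand: atcgcggacggAAGATGGCgtccgccaccc
NDUFS7, chr19:1383913-1383942, plus strand: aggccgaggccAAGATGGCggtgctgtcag
NDUFA9, chr12:4649113-4649142, plus strand: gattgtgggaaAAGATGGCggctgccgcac
NDUFS4, chr5:53560649-53560678, plus strand: ttgcctgcagcAAGATGGCggcggtgtcaa
NDUFB8, chr10:100529836-100529865, minus strand: tgaagaaggtgAAGATGGCggtggccaggg
NDUFA6, chr22:42090729-42090758, minus strand: gatgctttggcAAGATGGCggggagcggcg
The genes are in order of their fall at 24 h, from -0.94 to -0.26. Their median log2 fold change was -0.68, against -0.41 over the 24 complex I genes with a window but no match, and the ranges of the groups overlapped (-0.94 to -0.26 and -0.76 to -0.17). Over all genes tested that have a window the medians were -0.017 with the YY1 letters and -0.029 without. The YY1 matches were shown because the genes with the largest falls hold them, so that choice favoured a larger fall. For the E-box the complex I medians with and without a match were -0.90 (3 genes) and -0.41. They were -0.55 (5 genes) and -0.39 for ETS, and -0.43 (9 genes) and -0.41 for ACGTG. For NRF1 (6 genes) and for ESRRA (4 genes) they were -0.37 and -0.42. These values are a description without a test, and a match of letters is no evidence of binding.

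The regulators that bind or assist at such sites did not move in one direction. PPARGC1A, the coactivator PGC-1alpha that drives mitochondrial gene expression together with NRF1 and ESRRA, read 1706, 1981 and 2024 in PBS, 326.3, 302.8 and 374.6 at 6 h, and 347.2, 373.9 and 308.7 at 24 h. Both treated groups lay far below PBS and overlapped each other. Its log2 fold change was -2.45 ± 0.11 at 6 h and -2.42 ± 0.11 at 24 h (SE; limma adjusted p = 1.77e-06 and 1.33e-06), while the complex I median was -0.15 at 6 h and -0.42 at 24 h. Its relative PPARGC1B was at -1.05 and -1.04. The receptor ESRRA was lower at both times, by 0.42 and 0.36 on the log2 scale (limma adjusted p = 0.0194 and 0.0358). ESRRA missed the test at 24 h on leaving out PBS replicate 1, PBS replicate 3, or replicate 1 or 2 of 24 h (adjusted p up to 0.106), and at 6 h on leaving out PBS replicate 1, PBS replicate 3, or replicate 1 or 3 of 6 h (up to 0.0629). NRF1 read 0.033 at 6 h and 0.048 at 24 h with no call. TFAM, which packages and transcribes the mitochondrial genome, was higher at both times, at 0.43 and 0.35 (limma adjusted p = 0.000966 and 0.0026), calls that its probe sets without a suffix did not share. YY1 read 0.079 at 6 h and 0.039 at 24 h, and GABPA -0.27 and -0.26, with no call. These 2 are named outside the naming rule, because their letters were searched. Of the 14 regulators listed, 4 fell and 5 rose at 24 h, where 22.8% of all genes tested fell and 17.5% rose.

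**Figure D4:**
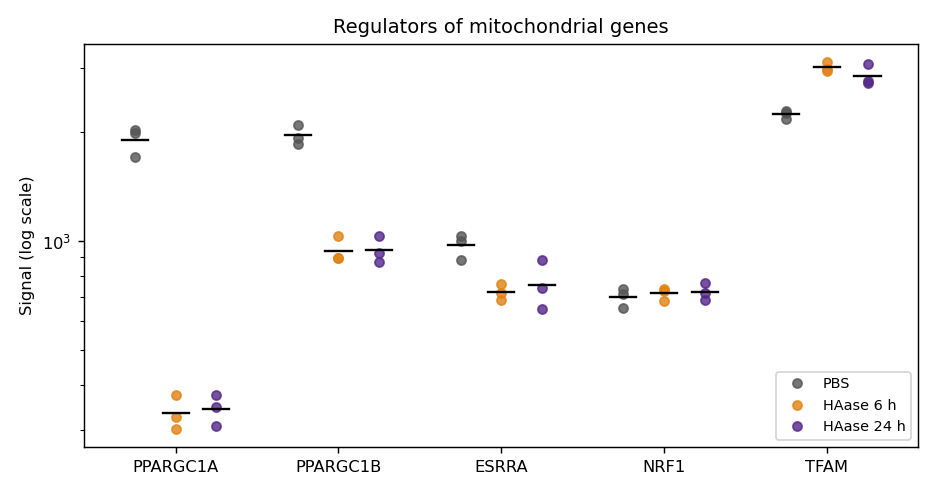
Signal on each array (vertical axis, log scale) of 5 regulators of mitochondrial genes in PBS (grey), 6 h (orange) and 24 h (purple) of hyaluronidase (HAase), with the group mean as a black line. PPARGC1A drops from a mean of 1904 in PBS to 334.6 at 6 h and 343.3 at 24 h, NRF1 stays near 700, and TFAM is higher in both treated groups.

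The other complexes of the chain were also lower at 24 h, where 22.8% of all genes tested fell and 17.5% rose. All 3 tested genes of complex II fell, with SDHD at -0.68 and the flavoprotein gene SDHA at -0.39. In complex III 5 of 7 fell, led by UQCRC2 (-0.82) and the cytochrome c1 gene CYC1 (-0.69). In complex IV 10 of 11 fell, with COX7B at -0.50 and COX5B at -0.45, and in ATP synthase 14 of 16 fell, with ATP5MC1 at -0.60 and ATP5F1D at -0.58. The list medians at 24 h were -0.39, -0.37, -0.33 and -0.43 in that order, beside -0.42 for complex I, and whether the complexes differ was not tested. At 6 h the medians were -0.33, -0.18, -0.10 and -0.15. No gene of complex IV passed the test at 6 h (3 were lower and none higher at an unadjusted p under 0.05), though 4 passed as lower under quantile normalization and 4 under a variance model with a trend.

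**Figure D5:**
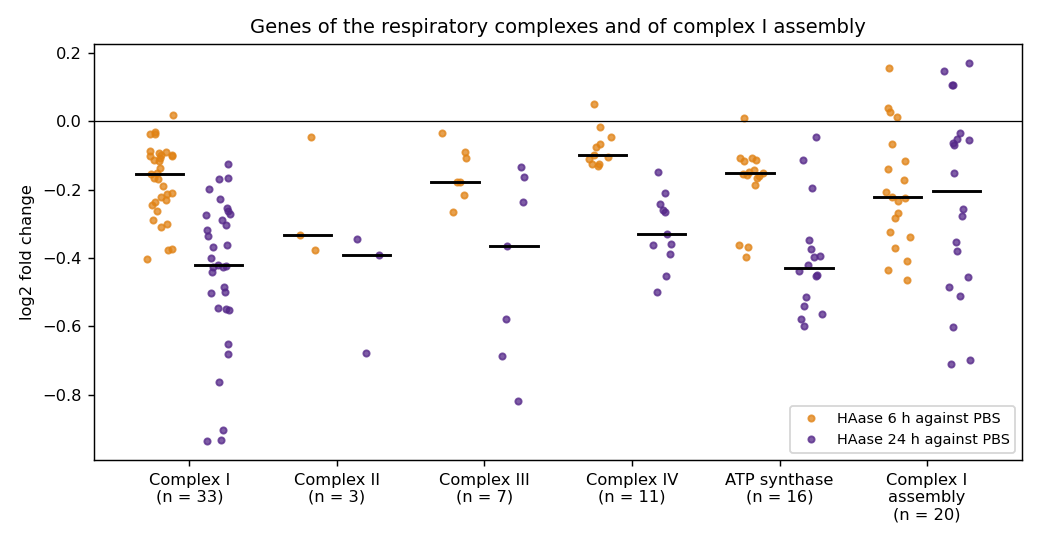
Log2 fold change against PBS (vertical axis) for the tested genes of each respiratory complex and of complex I assembly, at 6 h (orange) and 24 h (purple) of hyaluronidase, with 1 point per gene, spread sideways for legibility, and a black line at each list's median. Every gene of complexes I to IV and of ATP synthase lies below zero at 24 h, while assembly factors lie on both sides.

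Genes for proteins that build complex I went in both directions. Of 20 assembly genes tested, 10 fell and 2 rose at 24 h, with a median of -0.20. Over all genes tested 22.8% fell and 17.5% rose. AIFM1, needed for the import of subunits, was at -0.71 ± 0.07 and ECSIT, of the complex that assembles the membrane arm, at -0.70 ± 0.05 (SE; limma adjusted p = 0.00012 and 2.53e-05). NDUFAF2 (0.17, adjusted p = 0.0138) and TMEM70 (0.15, 0.0387) were the genes that rose, chosen for naming after their values were seen, and in most alternatives at least 1 of these calls was lost. Other enzymes that handle NADH or feed ubiquinone went both ways: of 7 tested, 4 fell and 1 rose at 24 h. The same shares over all genes tested apply to this count. SQOR, which oxidises sulfide and passes the electrons to ubiquinone, rose from 369.9 to 912.9 at 6 h and 2947 at 24 h in the group means (log2 fold change at 24 h 2.94 ± 0.08, SE; limma adjusted p = 9.29e-08). ETFDH, which passes electrons from fatty acid oxidation to ubiquinone, fell from 1188 to 912.9 at 6 h and 492 at 24 h (-1.25 ± 0.07; 3.34e-06).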

How the data were processed

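The authors deposited 1 intensity per probe set on a linear scale. The series design text names CHP files as their origin, and how probes were summarised is not given in the sources used here. Arrays were already scaled: the mean after trimming 2% at each end was 500.07 to 500.075 on all 9 arrays. The number of arrays limits the precision. Of 54675 probe sets, the platform annotation gave 1 gene symbol to 41091, several to 1801 and none to 11721. Signals were used as log2(signal + 16), so fold changes of dim genes are understated. Each gene was represented by the probe set of highest mean log2 value, and genes dimmer than the 30th percentile, near a signal of 32.2, were not tested. For 13842 genes, group means were fitted to the 9 arrays by lmFit and eBayes of limma 3.58.1 (R 4.3.3). Adjusted p-values are limma's with Benjamini-Hochberg adjustment over all genes tested in a comparison, and genes were called at an adjusted p under 0.05. The code was tested on simulated data. With 3 arrays against 3, a permutation could not give a two-sided p under 0.1.

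The complex I members, the other gene lists, the motifs and the rule for named genes were chosen with earlier results of these data known. By that rule, values on every array are given for the 3 largest changes at 24 h in each group of subunits and the 3 smallest changes overall. Of each other list the 2 largest changes past the test are named, with PPARGC1A, NRF1, ESRRA and TFAM. The alternatives were another pseudocount (1 or 64), quantile normalization, equal array medians, no filter or a 50th percentile filter, the mean of a gene's probe sets, only probe sets without a suffix (the suffix marks probes that may match several transcripts), only the groups compared, a trended and robust variance, the replicate number as a block, and leaving out each array. Promoter sequences are RefSeq's, of assembly GRCh38.p14.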

Additional observations from a re-analysis of the deposited data

Results flagged for a closer look

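The complex I genes below differed between the 24 h and 6 h arrays by limma's direct test (adjusted p under 0.05), and 24 h was lower for each. Duration of treatment and time of harvest cannot be told apart in this comparison. Among core subunits the log2 fold changes were -0.53 for NDUFS7, -0.36 for NDUFV1, -0.32 for NDUFS1 and -0.24 for NDUFS3. In the matrix arm they were -0.53 for NDUFA7, -0.46 for NDUFA9, -0.25 for NDUFS4, -0.25 for NDUFA2, -0.24 for NDUFV3, -0.22 for NDUFA12 and -0.17 for NDUFA6 (-0.165). In the membrane arm they were -0.56 for NDUFA3, -0.55 for NDUFB1, -0.44 for NDUFA1, -0.44 for NDUFC1, -0.33 for NDUFB3, -0.27 for NDUFB6, -0.23 for NDUFB7, -0.22 for NDUFB8, -0.22 for NDUFB2, -0.22 for NDUFB5 (-0.215) and -0.18 for NDUFA11. The calls of NDUFA6, NDUFA11, NDUFB7, NDUFB8, NDUFS3 and NDUFV3 were each lost without at least 3 of the 6 arrays compared.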

How the results depend on the processing

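Under the 11 alternatives and with each array left out, no complex I gene rose in any comparison. At 24 h against PBS the number lower was 17 with only probe sets without a suffix, where 26 genes could be tested. The other alternatives moved it both ways from 30. It was 27 with a replicate block, 28 with equal array medians, 32 under quantile normalization and 33 at most. With the mean of probe sets the calls of NDUFA5, NDUFA10, NDUFA11, NDUFAB1, NDUFB2, NDUFB4, NDUFB6 and NDUFB7 were lost. With an array left out the number was 26 to 30. At 6 h the number lower was 26 under quantile normalization, 20 with a trended and robust variance and 9 with equal array medians, against 13. With an array left out it was 8 to 12. The median at 6 h was -0.21 (-0.208) under quantile normalization and -0.22 with the mean of probe sets, against -0.15. At 24 h against 6 h the number was 10 with the mean of probe sets and 12 of 26 without a suffix, against 22, and 16 to 22 with an array left out. The cause was not tested, beyond the fewer genes that have probe sets without a suffix. With those, NDUFA2, NDUFA11, NDUFB1, NDUFB4, NDUFB6, NDUFB7 and NDUFV3 lost their call at 24 h against PBS. They were then read from dimmer probe sets, with PBS means from 55.34 (NDUFA11) to 296.4 (NDUFV3). NDUFAB1 also lost its call, with its main probe set at 23960. The part of brightness in these losses was not tested. Of the called genes 17 of 30 at 24 h, 3 of 13 at 6 h and 7 of 22 between the times kept their call in every alternative that could be fitted. Same-numbered arrays did not deviate together (correlations of deviations -0.049 to 0.037 over 9 pairs). This cannot show whether same-numbered samples were prepared together. With a replicate block 27, 9 and 16 genes were lower at 24 h, at 6 h and between the times. Signs turned, with no call in any case, for the mean of probe sets in NDUFA10 (0.13 at 24 h, 0.19 at 6 h), NDUFA11 (0.05 at 6 h), NDUFB2 (0.025 at 6 h), NDUFB4 (0.11 between the times) and NRF1 (-0.12 at 24 h, -0.057 at 6 h). They also turned for probe sets without a suffix in NDUFA11 (0.35), NDUFB6 (0.003), NDUFB7 (0.036) and NDUFV3 (0.08) at 6 h and in NDUFA6 (0.04) and NDUFB4 (0.29) between the times. NDUFB9 at 6 h read -0.025 under quantile normalization and -0.002 without PBS replicate 2, and NRF1 read -0.015 without the latter; with each array left out they ranged up to 0.044 and 0.069. Scalings moved the median of all genes by under 0.1 on the log2 scale.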
